A study of Mus musculus with 80 samples.

Results

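The genes described here are homeobox genes outside the Hox clusters, found in the gene table by a pattern over their symbols that covers the *Irx*, *Tgif*, *Mkx*, *Tshz*, *Zeb*, *Zfhx*, *Prox*, *Prrx*, *Cux*, *Satb*, LIM-homeobox, *Dlx*, *Msx*, *Nkx* and related families. The pattern finds 78 of the 25899 genes in the table. Of these 78, 57 had at least 1 read in the 30 libraries compared and 21 had none.

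RNA was sequenced from muscle stem cells (MuSCs) of extraocular muscle (EOM), which move the eye, and of *Tibialis anterior* (TA), a hindlimb muscle, of 10 *Tg:Pax7-nGFP* mice aged 7 or 7.6 weeks on a C57BL/6;DBA2 F1/JRj background. Before grafting, 500 cells were taken from each muscle by their nuclear GFP, which a *Pax7* transgene drives. EOM and TA MuSCs of a donor were then each placed in a TA of the same *Rag2-/-;γC-/-* recipient on a C57BL/6J background, which lacks lymphocytes. Both TAs had been injured with cardiotoxin before. GFP-positive cells were sorted again at day 21 per the labels. This day lies in the range that the methods of the study give, while its results give a later day. The post-graft libraries compared hold a median of 35 cells for EOM and 26 for TA, per the labels, and for some libraries the quality table of the study gives another number. After quality control, 8 EOM and 8 TA pre-graft and 7 EOM and 7 TA post-graft libraries were compared. Both grafts lay in injured TA of an immunodeficient host, so there is no graft into EOM, and stage is confounded with the host, the injury, the second sort and the number of cells, which cannot be told apart.

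Homeobox genes encode transcription factors that bind DNA through a homeodomain, and many of them give cells of an embryo their position. TALE genes (*Irx*, *Tgif*, *Mkx*) encode a homeodomain with an extended loop. LIM-homeobox proteins work with Ldb cofactors, and Zeb, Tshz and Zfhx proteins carry zinc fingers beside their homeodomain. Tgif and Zeb proteins are known repressors that bind Smads, the mediators of TGF-beta signals. MuSCs lie quiescent under the basal lamina of the myofibre and are marked by *Pax7*, another homeobox gene outside the pattern.

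The 250 bases before the RefSeq start of *Tshz2* (GRCm38.p6, chr2:169632259-169632508, plus strand) and of *Msx1* (chr5:37824586-37824835, minus strand) are shown because results below turn on both genes. Capitals mark CAGGTG, the E2-box that Zeb proteins are known to bind, on either strand. CAGCTG and TAATTA, searched on both strands, have no match in either window. A match describes the letters only.
*Tshz2*: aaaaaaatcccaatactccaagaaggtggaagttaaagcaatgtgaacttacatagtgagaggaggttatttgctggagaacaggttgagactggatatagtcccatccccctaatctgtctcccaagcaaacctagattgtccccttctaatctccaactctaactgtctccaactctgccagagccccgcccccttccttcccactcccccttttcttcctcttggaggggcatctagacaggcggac
*Msx1*: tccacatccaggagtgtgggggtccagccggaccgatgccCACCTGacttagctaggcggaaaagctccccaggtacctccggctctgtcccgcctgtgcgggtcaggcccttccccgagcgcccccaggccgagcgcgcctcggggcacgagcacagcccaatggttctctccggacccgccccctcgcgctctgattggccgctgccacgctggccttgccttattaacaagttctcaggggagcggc
RefSeq windows were found for 57 of the 78 homeobox genes (79 windows, as a gene can have several starts). CAGGTG lies in 7 of the 79 windows (8.86%) and in 17.2% of the 32851 windows of all genes. CAGCTG lies in 8.86% against 13% and TAATTA in 6.33% against 4.84%. The windows of the homeobox genes hold a median of 16 CpG against 6 for all genes, with 2 in *Tshz2* and 20 in *Msx1*.

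Of 40 RNA libraries, 10 that did not pass the quality control of the study were left out, 1 of which meets its stated thresholds. Libraries held 963432 to 4169357 reads on genes, and each holds reads of 16 to 31 of the 78 genes. The median library held 26.5 in EOM and 24.5 in TA before grafting, and 24 in both post-graft groups. Mitochondrial genes took a mean of 4.48% of reads in EOM and 11.3% in TA before grafting, and 31.4% and 24.9% after it. *Pax7*, *Myf5* and *Myod1*, which define MuSCs, had reads in all 30 libraries. The plot of detected genes by depth shows these counts.

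**Figure D1:**
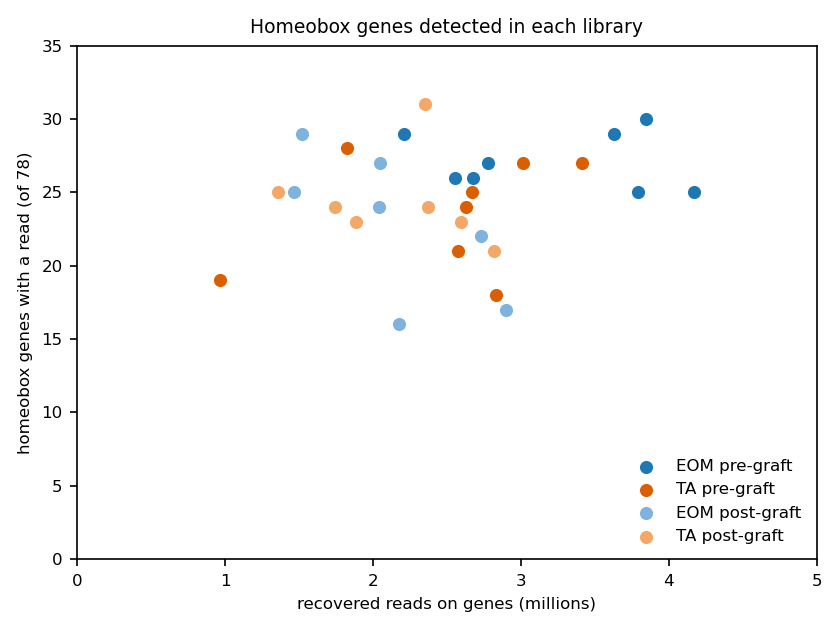
Homeobox genes with at least 1 read (y axis, of 78) against recovered reads on genes (x axis, in units of 1e6), 1 point for each of the 30 libraries, coloured by group. Pre-graft libraries reach 4169357 reads and 30 detected genes, and post-graft libraries lie between 16 and 31 genes.

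By structural class, 8 of 8 zinc finger, 4 of 4 CUT, 2 of 2 PROS, 8 of 9 TALE, 8 of 10 LIM, 5 of 7 PRD and 22 of 38 ANTP genes had reads. Reads were present in all 30 libraries for 12 genes, of which 6 are zinc finger genes (*Tshz1*, *Tshz2*, *Zeb1*, *Zeb2*, *Zfhx3*, *Zfhx4*). The others are *Tgif1*, *Tgif2*, *Prox1*, *Prrx1*, *Cux1* and *Msx1*. A gene was tested where it lay above log2 RPM 1 (RPM, reads scaled to library depth) in at least 4 of the libraries compared, which holds for 32 of the 78 genes in at least 1 comparison. A call needed an adjusted p below 0.05 in limma and a change of more than 1 on the log2 scale, either way. By this rule 18 genes were called at least once: 7 of 8 zinc finger genes tested, 5 of 6 TALE, 2 of 2 PROS, 2 of 4 CUT, 1 of 3 PRD, 1 of 4 LIM and 0 of 5 ANTP. These counts rest mostly on the graft comparisons, in which 30.9% (TA) and 55.8% (EOM) of all genes were called lower in RPM, and the ANTP genes *Msx1*, *En1* and *Nkx6-2* were each called after libraries were centred on their median.

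**Figure D2:**
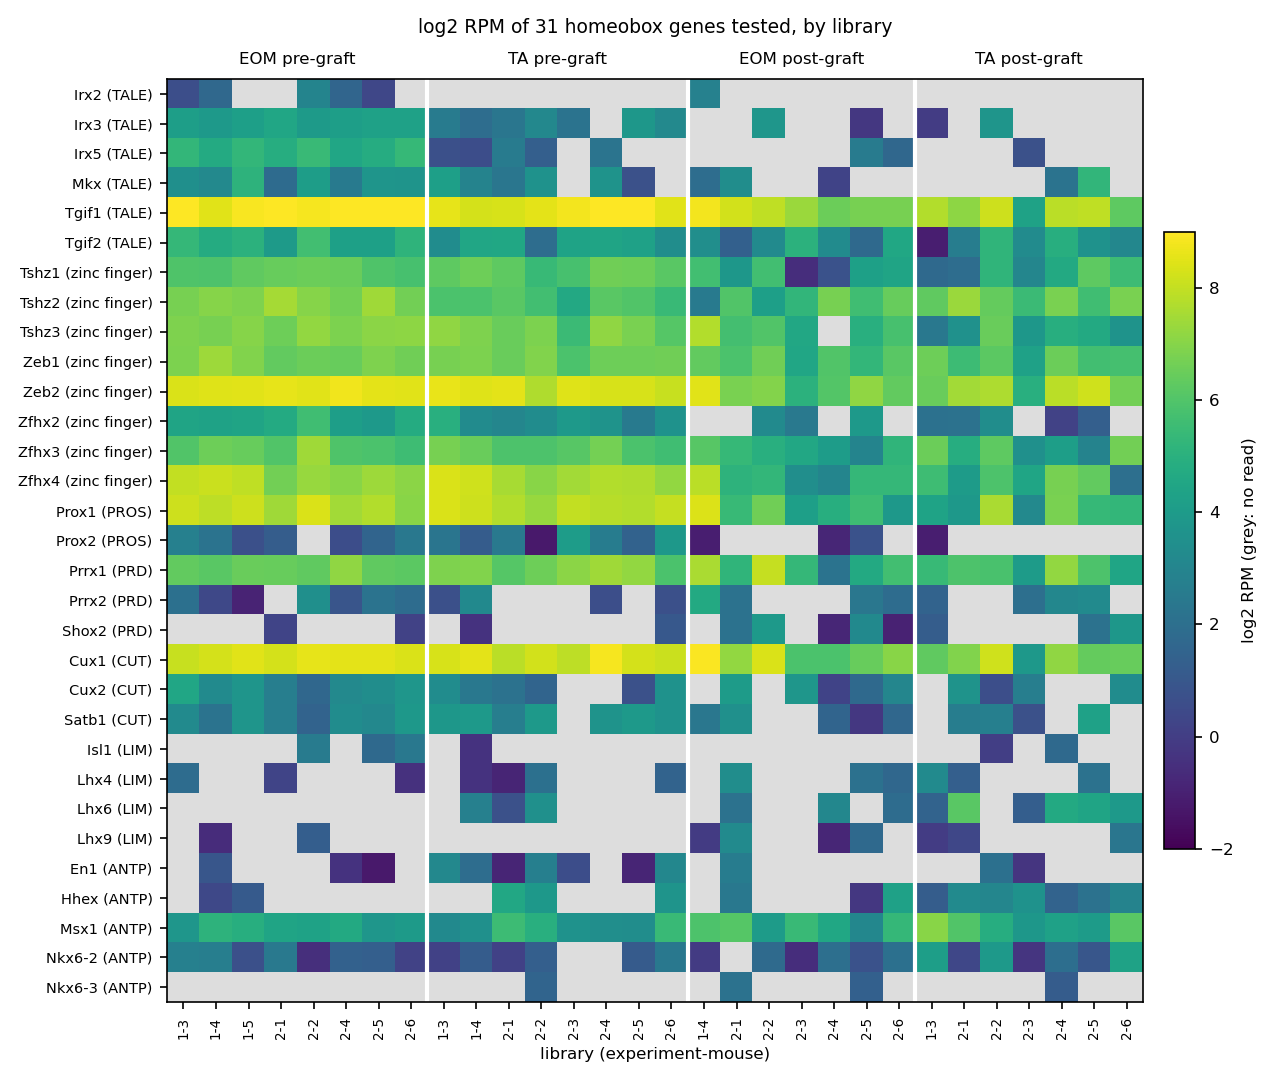
log2 RPM (colour) of 31 of the 32 tested homeobox genes (rows, by class) in each of the 30 libraries (columns, experiment and mouse number), with grey where a gene had no read. *Irx5* and *Irx3* are coloured in all 8 EOM pre-graft libraries and grey in 5 of 7 EOM post-graft libraries each.

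The first comparison asks which of these genes differ between EOM and TA MuSCs before grafting. *Irx5*, *Irx3* and *Tshz2* were higher in EOM, and no gene was called lower, of 24 tested. Over all 13217 genes, 3.31% were called higher and 1.26% lower. The median homeobox difference was 0.23 and that of all genes 0.30 (log2, EOM minus TA), so RPM itself is shifted toward EOM. After each library was centred on its median, *Irx5* and *Tshz2* were called higher and *En1* lower, against 2.08% of all genes higher and 1.77% lower.

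*Irx5* and *Irx3* are Iroquois genes that pattern heart, limb and nervous system, and lie in 1 cluster on chromosome 8. *Irx5* (chr8:92357796-92361454) had 41 reads in the lowest EOM library, a median of 70 and 126 in the highest. In TA it had 0, 2.5 and 11. Every EOM library lay above every TA library, with 5.05 ± 0.35 log2 RPM in EOM (SD, n = 8) and 0.48 ± 1.55 in TA (SD, n = 8), where a library without a read stands at 0.9 of a read. The difference was 4.56 ± 0.60 (SE; limma, adjusted p = 2.23e-05). It was 4.59 in Experiment 2 alone (limma, adjusted p = 0.00558), and in Experiment 1 reads were 41 to 74 in 3 EOM and 2 and 3 in 2 TA libraries, too few libraries to be tested by the filter.

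*Irx3* (chr8:91798511-91802067) had 23, 41.5 and 53 reads in EOM (lowest, median, highest) and 0, 10 and 25 in TA. The groups did not overlap in log2 RPM, at 3.90 to 4.50 in EOM and 0.48 to 3.80 in TA. The difference was 1.75 ± 0.46 (SE; limma, adjusted p = 0.0195). It did not pass in Experiment 2 alone (1.75, limma adjusted p = 0.138), in Experiment 1 alone (1.83, limma adjusted p = 0.159), after centring (1.51, limma adjusted p = 0.0582) or in edgeR (1.21, quasi-likelihood test, adjusted p = 0.151). With all libraries, 1 of which held 302 reads on genes, it did not pass either (2.15, limma adjusted p = 0.35). It passed in DESeq2 (1.17, adjusted p = 0.0365), with the donor mouse as a block (1.74, limma adjusted p = 0.0112), on log2(RPM + 1) (1.69, limma adjusted p = 0.0209) and without the filter (limma, adjusted p = 0.0326).

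The other Iroquois genes had few reads. *Irx2* had reads in 5 of 8 EOM libraries (22 at most) and in 0 of 8 TA libraries, at a mean of 2.10 RPM, at least 1.06-fold higher than the 1.98 RPM that 3 reads per TA library would give. *Irx1* had 1 read in each of 2 EOM libraries, *Irx6* had 2 reads in 1 TA post-graft library, and *Irx4* had none. *Irx2* is, with *Irx1* and *Irx4*, in the other Iroquois cluster, on chromosome 13.

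*Tshz2* (chr2:169633013-170071816), a teashirt gene of a family known for trunk and limb patterning, had 199, 267 and 409 reads in EOM and 47, 107.5 and 133 in TA. The lowest EOM library (6.65 log2 RPM) lay above the highest TA library (6.19). The difference was 1.24 ± 0.22 (SE; limma, adjusted p = 0.000607), 1.35 in Experiment 2 (limma, adjusted p = 0.0167) and 0.99 in Experiment 1 (limma, adjusted p = 0.0333). It lay just under the limit of 1 in edgeR (0.97, adjusted p = 0.00399) and DESeq2 (0.96, adjusted p = 0.000223). The family members *Tshz1* and *Tshz3* differed by -0.03 and 0.31 and did not pass.

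*En1*, an engrailed gene known from midbrain and ventral limb ectoderm, had reads in 7 of 8 TA and 3 of 8 EOM libraries, 21 and 3 at most. It stood at 1.28 ± 1.67 log2 RPM in TA and -0.87 ± 0.84 in EOM (SD, n = 8 each), with overlap. The difference of -2.15 missed the threshold (limma, adjusted p = 0.0579) and passed with the donor mouse as a block (-2.16, limma adjusted p = 0.0368), after centring (-2.39, limma adjusted p = 0.041) and in DESeq2 (-3.70, adjusted p = 0.029). It did not pass in edgeR (-3.46, adjusted p = 0.0567), on log2(RPM + 1) (-1.43, limma adjusted p = 0.0892), without the filter (limma, adjusted p = 0.0716) or with all libraries (-1.53, limma adjusted p = 0.547). The fit of all libraries includes an EOM pre-graft library of 302 reads on genes, in which a gene without a read stands at 10.7 log2 RPM. *Emx2* and *Otx1*, head patterning genes with too few reads to test, had reads in 6 and 3 of 8 EOM libraries, 7 and 6 at most, and in no TA pre-graft library. Other untested genes went the other way. Among them, *Otx2*, *Hmx3* and *Msx3* had 3, 4 and 11 reads in 1 TA pre-graft library each and none in EOM pre-graft libraries. *Isl1*, a LIM gene of heart and pharyngeal muscle progenitors, had reads in 3 of 8 EOM libraries (17 at most) and 1 read in 1 TA library.

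The level of each gene by library is plotted for 8 genes.

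**Figure D3:**
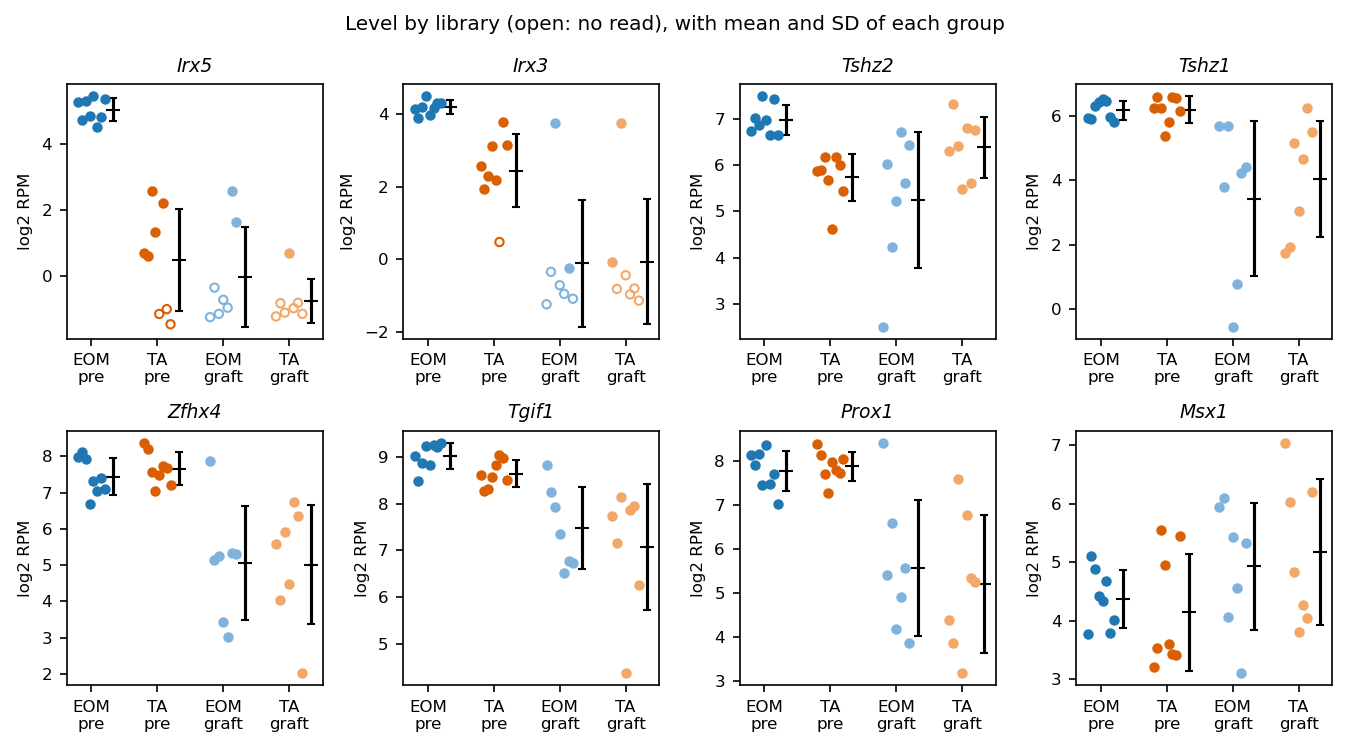
log2 RPM (y axis) of 8 homeobox genes in each library (points, open where the gene had no read) of the 4 groups (x axis), with the mean and SD of the group in black. EOM pre-graft libraries lie above all TA pre-graft libraries for *Irx5*, *Irx3* and *Tshz2*.

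Markers of other cell types differed between the same libraries. *Mbp*, a myelin gene, was 5.17 higher in EOM (log2; limma, adjusted p = 0.00642), and *Dcn*, a fibroblast gene, 5.62 higher (limma, adjusted p = 0.00592). *Cdh5*, an endothelial gene, was 4.09 lower (-4.09; limma, adjusted p = 0.0364) and *Pax7* -1.15 (limma, adjusted p = 0.00153). The Schwann and oligodendrocyte list summed to 440 to 4641 RPM in EOM and 183 to 1358 in TA, with 1 of 9 tested genes higher. The fibro-adipogenic and tendon list summed to 3387 to 6489 and 3111 to 5681 RPM, with 1 of 9 higher. The endothelial list summed to 97.5 to 767 and 17.1 to 1913 RPM, with 1 of 10 higher and 2 lower. Of the MuSC list, 1 of 15 was higher and 2 lower. Stress genes of dissociation were lower for 2 of 12 and higher for 0. The myofibre list summed to 80.3 to 133 RPM in EOM and 198 to 491 in TA, without overlap, with 0 of 9 higher and 2 lower. Macrophage markers (0 of 4) and erythroid markers (0 of 3) gave no call, while *Ptprc* had reads in 3 of 8 EOM and 1 of 8 TA libraries. The part of these cells in the differences of *Irx5*, *Irx3* and *Tshz2* was not tested.

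The second question is what changed in TA MuSCs grafted back into TA. RPM fell broadly: the median of all 13076 genes was -1.09 (log2, after minus before), with 30.9% called lower and 3.79% higher. Of 26 homeobox genes tested, 11 were called lower and 1 higher, with a median of -1.25. Changes are therefore also given relative to the median of all genes. After centring, 3 genes (*Prox1*, *Zfhx4*, *Tshz3*) were called lower and 4 (*Lhx6*, *Msx1*, *Tshz2*, *Nkx6-2*) higher, against 5.68% of all genes lower and 7.67% higher. Each graft comparison uses the same pre-graft libraries as the first comparison. Fewer cells expressing a gene and less of its RNA per cell cannot be told apart in these bulk libraries.

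*Prox1*, a prospero gene known for lymphatic endothelium and slow muscle, fell in TA grafts. It had 144, 382 and 653 reads before and 11, 64 and 376 after grafting. The change was -2.68 ± 0.50 (SE; limma, adjusted p = 0.000985), or -1.60 relative to the median, and passed after centring (-1.79, limma adjusted p = 0.00429), in edgeR (-1.40, adjusted p = 0.0335) and in DESeq2 (-1.33, adjusted p = 0.0123). Its paralogue *Prox2* had reads in 8 of 8 libraries before (36 at most) and 1 read in 1 of 7 after grafting. *Prox2* was called lower in RPM (-2.999; limma, adjusted p = 0.00588), or -1.91 relative to the median. It was not called after centring (-2.104, limma adjusted p = 0.0704), but was in edgeR (-5.09, adjusted p = 0.0084) and DESeq2 (-4.67, adjusted p = 0.00303).

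*Zfhx4* (chr3:5218526-5415855), a zinc finger homeobox gene, had 137, 359 and 614 reads before and 8, 101 and 186 after grafting. The log2 RPM ranges, 7.03 to 8.38 and 2.02 to 6.73, did not overlap, and the change was -2.65 ± 0.53 (SE; limma, adjusted p = 0.00148), or -1.56 relative to the median. It passed after centring (-1.75, limma adjusted p = 0.0212) and in DESeq2 (-1.22, adjusted p = 0.0404), not in edgeR (-1.33, adjusted p = 0.0585). *Tgif1* (chr17:70844205-70853546), a repressor of TGF-beta responses, had 343, 811 and 911 reads before and 25, 389 and 549 after, with ranges of 8.28 to 9.05 and 4.36 to 8.15 log2 RPM that did not overlap. It changed by -1.57 ± 0.44 (SE; limma, adjusted p = 0.0107), or -0.49 relative to the median, and was not called after centring. *Tshz3* fell by 2.40 and *Tshz1* by 2.15 on the log2 scale (limma, adjusted p = 0.00224 and 0.0106), or -1.32 and -1.07 relative to the median. *Tshz3* passed after centring (-1.51, limma adjusted p = 0.0314), not in edgeR (-1.21, adjusted p = 0.0911) or DESeq2 (-1.11, adjusted p = 0.0762). *Tshz1* did not pass after centring (-1.26, limma adjusted p = 0.139), in edgeR (-0.67, adjusted p = 0.448) or in DESeq2 (-0.57, adjusted p = 0.514).

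*Zfhx2* (-2.45), *Irx3* (-2.51), *Cux1* (-1.79), *Zeb2* (-1.28) and *Prrx1* (-1.22) were also called lower in RPM (limma, adjusted p = 0.00533 to 0.0343), and none of them was called after centring, in edgeR or in DESeq2. *Irx3* had reads in 7 of 8 TA libraries before and in 2 of 7 after grafting, 26 in one and 2 in the other. *Zeb2*, a repressor of E-cadherin, stood 0.20 under the median change (-0.20).

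*Lhx6*, a LIM-homeobox gene of cortical interneurons and the facial skeleton, was the 1 gene called higher. It had reads in 3 of 8 TA libraries before (27 at most) and in 6 of 7 after grafting (31 at the median, 114 at most). The groups overlapped, and the change was 2.64 ± 1.03 (SE; limma, adjusted p = 0.0481). It was no longer called when any 1 of 11 of the 15 libraries was left out (2.11 to 3.32, limma adjusted p of 0.106 at most), nor in Experiment 2 alone (3.06, limma adjusted p = 0.0695).

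*Tshz2* and *Msx1* were not called in RPM and lay above the median of all genes. *Tshz2* had 47, 107.5 and 133 reads before and 55, 166 and 256 after grafting, a change of 0.65 ± 0.39 (SE; limma, adjusted p = 0.18), or 1.74 relative to the median. It was called higher after centring (1.55, limma adjusted p = 0.00244), in edgeR (1.53, adjusted p = 0.00379) and in DESeq2 (1.67, adjusted p = 1.91e-05). *Msx1*, known to hold back myogenic differentiation in the limb, had 7, 21.5 and 108 reads before and 17, 55 and 277 after, a change of 1.03 ± 0.60 (SE; limma, adjusted p = 0.166). It was called higher after centring (1.93, limma adjusted p = 0.0221), in edgeR (1.74, adjusted p = 0.0453) and in DESeq2 (1.86, adjusted p = 0.00927). *Nkx6-2* had 0 to 13 reads before and 1 to 40 after and was called after centring (2.39, limma adjusted p = 0.0396) and in DESeq2 (2.82, adjusted p = 0.00949), not in edgeR (2.67, adjusted p = 0.0736).

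The third question is what changed in EOM MuSCs placed in TA. The median of all 13094 genes was -1.48 (log2), with 55.8% called lower and 3.51% higher. Of 24 homeobox genes tested, 16 were called lower and 0 higher, with a median of -1.76. After centring, *Irx5* and *Irx3* were called lower and *Msx1* higher, against 4.84% of all genes lower and 6.65% higher.

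**Figure D4:**
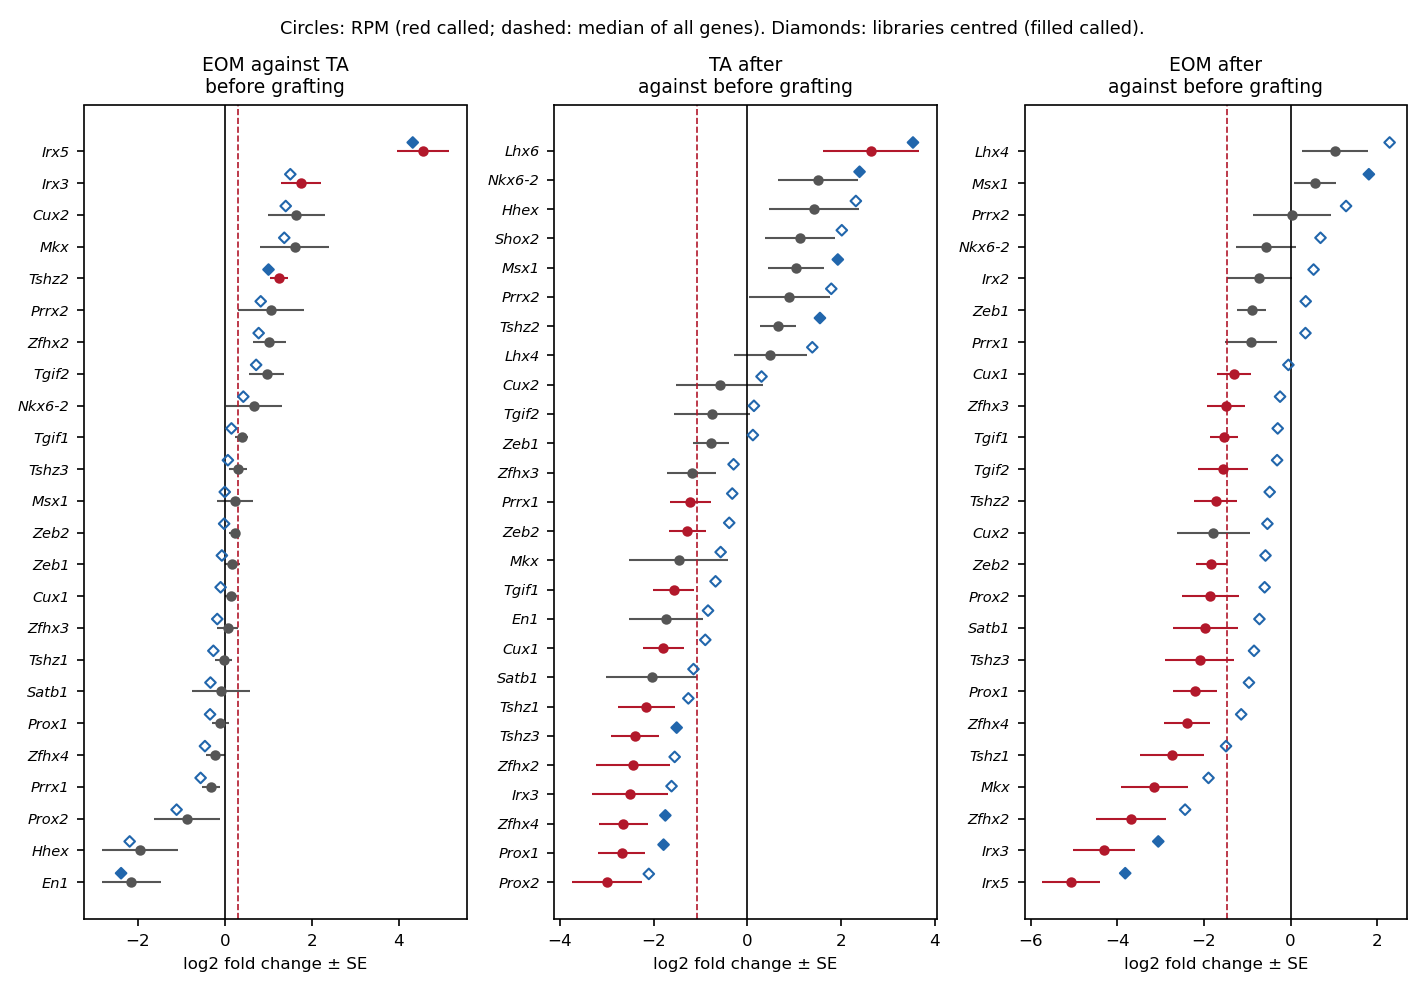
log2 fold change with its SE (x axis) of the homeobox genes tested (y axis) in 3 comparisons: circles for RPM (red where called), diamonds after centring each library on its median (filled where called), and a dashed line at the median of all genes. In EOM grafts the circles of 16 genes are red, and 3 diamonds (*Irx5*, *Irx3*, *Msx1*) are filled.

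*Irx5* had 41 to 126 reads in the EOM pre-graft libraries and none in 5 of 7 EOM grafts, with 7 and 6 reads in those of mice 5 and 6 of Experiment 2. It fell from 5.05 ± 0.35 to -0.02 ± 1.51 log2 RPM (SD, n = 8 and 7), without overlap, by -5.07 ± 0.67 (SE; limma, adjusted p = 5.14e-05), or -3.59 relative to the median. The fall was called after centring (-3.82, limma adjusted p = 0.00134), in edgeR (-3.37, adjusted p = 0.0313), in DESeq2 (-3.30, adjusted p = 0.00152) and in Experiment 2 alone (-4.83, limma adjusted p = 0.00105).

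*Irx3* had 23 to 53 reads before grafting and none in 5 of 7 EOM grafts, with 27 reads in mouse 2 and 1 in mouse 5 of Experiment 2. The highest graft (3.77 log2 RPM) lay under the lowest pre-graft library (3.90). The change was -4.30 ± 0.72 (SE; limma, adjusted p = 0.000276), or -2.83 relative to the median. It was called after centring (-3.05, limma adjusted p = 0.00839) and in DESeq2 (adjusted p = 0.00438), not in edgeR (-2.19, adjusted p = 0.19). *Irx2* had 15 reads in 1 of 7 EOM grafts and none in the others.

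*Tshz1* (6.18 ± 0.29 before and 3.44 ± 2.41 log2 RPM after grafting; SD, n = 8 and 7) did not overlap between stages, with 93 to 263 and 1 to 109 reads. It changed by -2.74 ± 0.74 (SE; limma, adjusted p = 0.00539), or -1.27 relative to the median, and was not called after centring (-1.49, limma adjusted p = 0.125). *Zfhx2* (-3.69), *Mkx* (-3.15), a gene of tendon, *Zfhx4* (-2.39), *Prox1* (-2.21), *Tshz3* (-2.09), *Satb1* (-1.97), a chromatin organiser, *Prox2* (-1.85), *Zeb2* (-1.83), *Tshz2* (-1.73), *Tgif2* (-1.56), *Tgif1* (-1.55), *Zfhx3* (-1.49) and *Cux1* (-1.30) were called lower in RPM (limma, adjusted p = 0.000829 to 0.0291). Relative to the median of all genes they lay between -2.21 and 0.17, and none of these 13 was called after centring. *Tshz3* was at -1.13 without the EOM graft of mouse 4 of Experiment 2, which had no *Tshz3* read (limma, adjusted p = 0.02). *Tshz2* and *Tgif2* turned to 0.10 and 0.13 in edgeR and 0.25 and 0.26 in DESeq2, and *Cux1* to 0.03 in DESeq2.

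*Msx1* had 26, 48 and 68 reads before and 10, 64 and 131 after grafting, a change of 0.55 ± 0.49 (SE; limma, adjusted p = 0.315), or 2.03 relative to the median. It was called higher after centring (1.80, limma adjusted p = 0.00843), in edgeR (1.81, adjusted p = 0.00584) and in DESeq2 (1.92, adjusted p = 1.83e-05). *Msx1* stood at -0.07 with all libraries included, 1 of which, an EOM pre-graft library, held 302 reads on genes.

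The EOM graft of mouse 4 of Experiment 1, chosen after its values were seen, is the 1 EOM graft of that experiment and held the most cells of the 7. Of the 16 genes called lower, 15 had reads in every EOM pre-graft library. In this graft 9 of the 15 had reads and lay at or above their lowest EOM pre-graft library, against 1 or 2 in the other 6 EOM grafts. *Prox1* had 730 reads in it and *Cux1* 1045. *Irx5* and *Irx3* had 0 reads in it, and *Tshz2* had 12, the lowest of the 7 grafts. Its *Pax7* level was 9.02 log2 RPM, against 3.37 to 8.06 in the other 6, and its *Cdh5* level 4.64 against 5.71 to 8.09. Mitochondrial genes took 3.85% of its reads, against 15.9% to 59.6% in the other 6. Among TA grafts, that of mouse 2 of Experiment 2 held 4 of 10 such genes at or above their lowest TA pre-graft library, against 0 to 3 in the others. Its *Pax7* level was 9.11, the highest of the 7, and its *Cdh5* level 8.29, within the 5.86 to 8.85 of the others. The share of all genes at or above their lowest pre-graft library was not counted for any graft. These counts can therefore not be read as particular to homeobox genes.

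Marker lists were counted beside the 30.9% (TA) and 55.8% (EOM) of all genes called lower and the 3.79% and 3.51% called higher. Of the MuSC list, 12 of 15 genes were called lower in TA grafts and 14 of 15 in EOM grafts, with *Pax7* at -3.07 and -1.94 (limma, adjusted p = 0.000985 and 0.00908). Its summed level was 14459 to 25578 RPM before and 433 to 15686 after grafting. Of the endothelial list, 8 of 10 were higher in TA and 9 of 10 in EOM grafts, summing to 17.1 to 1913 RPM before and 213 to 4499 after. *Cdh5* rose by 3.05 and 6.37 (limma, adjusted p = 0.00971 and 0.000257), *Pecam1* by 3.10 and 5.70 (limma, adjusted p = 0.00975 and 0.00159) and *Kdr* by 2.66 and 5.34 (limma, adjusted p = 0.0179 and 0.00091). Myofibre genes were higher for 3 of 9 (1 lower) and 7 of 9, fibro-adipogenic and tendon genes for 6 of 10 (2 lower) and 2 of 11 (3 lower), and Schwann and oligodendrocyte genes were lower for 0 of 8 and 6 of 9. Stress genes of dissociation were lower for 10 of 12 and 8 of 12 (medians -1.38 and -1.29, against -1.09 and -1.48 for all genes), leukocyte genes higher for 1 of 3 in TA and lower for 2 of 5 in EOM grafts, and erythroid genes higher for 0 of 3 and 1 of 3. The part of these cells and of cell number in the changes of *Prox1*, *Lhx6*, *Msx1*, *Tshz2* and the *Irx* genes was not tested.

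Partner genes of these families were counted beside the medians of all genes, -1.09 in TA and -1.48 in EOM grafts. Of the LIM-homeodomain partners, 1 of 9 tested was higher and 3 lower in TA grafts, and 5 of 9 lower in EOM grafts (medians -0.48 and -1.16). The cofactor gene *Ldb2* rose by 3.29 in TA grafts (limma, adjusted p = 0.0136), and *Lmo2*, a LIM-only gene, fell by 1.66 and 3.02 (limma, adjusted p = 0.019 and 7.61e-05) and was 1.38 higher in EOM than in TA before grafting (limma, adjusted p = 8.84e-07). Groucho and CtBP corepressor genes were lower for 4 of 11 and 9 of 11 (medians -0.93 and -1.46), *Tle2* by -3.59 and -3.63 (limma, adjusted p = 0.0038 and 0.00119). Smad partners were lower for 4 of 10 and 7 of 10 (medians -0.98 and -1.53), and Snail and Twist genes for 1 of 2 and 2 of 4, with *Snai2* at -1.67 and -2.55 (limma, adjusted p = 0.0392 and 0.00399). Before grafting, *Lmo2* was the 1 call in these 4 lists (1 of 9 LIM-homeodomain partners, 0 of 11, 0 of 10 and 0 of 3 in the others).

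The fourth comparison sets EOM against TA grafts, which lay in the same kind of muscle. None of 23 homeobox genes was called in limma (0.0% of 12377 genes higher and 0.0% lower), and 2 had an unadjusted p under 0.05. Over all genes limma called 0, with 452 at an unadjusted p under 0.05, edgeR 0 and DESeq2 3, none of which is a homeobox gene. *Lhx6* had reads in 3 of 7 EOM (15 at most) and 6 of 7 TA grafts, and *Hhex*, a gene of endoderm and blood vessel precursors, in 3 of 7 and 7 of 7. Their differences were -2.48 ± 1.15 and -2.19 ± 1.04 (SE; limma, adjusted p = 1.00 for both). *Tshz2* stood at 5.25 ± 1.47 in EOM and 6.39 ± 0.66 log2 RPM in TA grafts (SD, n = 7 each), the reverse of the order before grafting, with overlap and a difference of -1.14 ± 0.61 (SE; limma, adjusted p = 1.00). *Irx5* and *Irx3* had too few reads in grafts to be tested.

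The last comparison asks whether the graft change of EOM differs from that of TA. It called 0 of 32 homeobox genes in limma, edgeR and DESeq2, against 8 genes (0.0554%) higher and 22 (0.152%) lower of 14428 in limma. An unadjusted p under 0.05 in limma was found for 3 of the 32 homeobox genes and for 1041 of the 14428 genes. The graft change of *Irx5* was 3.82 lower in EOM than in TA (-3.82 ± 0.98, SE; limma, adjusted p = 0.106). In TA before grafting *Irx5* stood at 0.48 log2 RPM (0 to 11 reads, none in 3 of 8 libraries). A library without a read stood at -0.89 there on average, so *Irx5* had little room to fall in TA. *Tshz2* differed by -2.39 ± 0.62 (SE; limma, adjusted p = 0.121), from -1.73 in EOM and 0.65 in TA. The *Tshz2* difference was -1.46 in edgeR (adjusted p = 0.412) and -1.44 in DESeq2 (adjusted p = 0.424). *En1* differed by 2.19 ± 0.95 (SE; limma, adjusted p = 0.629). *Irx5* was called on log2(RPM + 1) (-3.36, limma adjusted p = 0.0307) and without the EOM graft of mouse 5 of Experiment 2 (-4.26, limma adjusted p = 0.0408). It was at -1.18 in edgeR and -0.72 in DESeq2, and not called in either.

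Genes called in RPM keep the following levels across the groups, in log2 RPM (mean ± SD, n = 8, 8, 7 and 7 for EOM pre-graft, TA pre-graft, EOM graft and TA graft). *Tgif1* stood at 9.03 ± 0.28, 8.64 ± 0.29, 7.49 ± 0.88 and 7.07 ± 1.36, and *Tgif2* at 4.82 ± 0.60, 3.86 ± 0.92, 3.25 ± 1.33 and 3.10 ± 2.06. *Mkx* stood at 3.46 ± 1.00, 1.85 ± 2.21, 0.31 ± 1.72 and 0.39 ± 2.45. Of these 3 TALE genes, *Tgif1* was called lower in both grafts and *Tgif2* and *Mkx* in EOM grafts, while in TA grafts *Tgif2* (-0.76; limma, adjusted p = 0.45) and *Mkx* (-1.47; limma, adjusted p = 0.261) did not pass. The median of all genes was -1.09 in TA and -1.48 in EOM grafts.

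*Zeb2* stood at 8.54 ± 0.11, 8.31 ± 0.30, 6.71 ± 1.07 and 7.03 ± 1.12. *Zfhx2* stood at 4.55 ± 0.52, 3.53 ± 0.71, 0.86 ± 2.26 and 1.08 ± 1.61. *Zfhx3* stood at 6.25 ± 0.57, 6.18 ± 0.42, 4.75 ± 1.03 and 4.99 ± 1.52. *Zfhx4* at 7.44 ± 0.52, 7.66 ± 0.46, 5.05 ± 1.57 and 5.01 ± 1.64 gave near equal means in the muscles at each stage. *Tshz1* stood at 6.21 ± 0.42 in TA before and 4.05 ± 1.81 after grafting. *Tshz3* stood at 6.93 ± 0.22, 6.62 ± 0.57, 4.83 ± 2.74 and 4.21 ± 1.30.

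*Prox1* stood at 7.78 ± 0.45, 7.89 ± 0.34, 5.57 ± 1.55 and 5.20 ± 1.57, and *Prox2* at 1.22 ± 1.41, 2.10 ± 1.69, -0.63 ± 0.68 and -0.90 ± 0.24. *Prrx1*, a limb mesenchyme gene, stood at 6.44 ± 0.31, 6.76 ± 0.53, 5.53 ± 1.94 and 5.54 ± 1.05. *Cux1* stood at 8.41 ± 0.18, 8.27 ± 0.32, 7.11 ± 1.18 and 6.48 ± 1.32, and *Satb1* at 2.97 ± 0.81, 3.06 ± 1.75, 1.00 ± 1.73 and 1.02 ± 2.24. *Lhx6* stood at -1.25 ± 0.34 (no read in any library), 0.36 ± 1.90, 0.52 ± 1.79 and 3.00 ± 2.51. Of the 18 called genes, 12 overlap another gene of the table, on the opposite strand for 11 of them. In the quality table of the study, RNA reads fell about equally on the sense and the other strand. Strand can therefore not separate reads of such partners, which may be counted together.

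Of the 14 genes tested and never called, 13 follow in the same order of groups. *Zeb1*, the paralogue of *Zeb2*, stood at 6.74 ± 0.33, 6.57 ± 0.32, 5.84 ± 0.71 and 5.80 ± 0.78, and its changes of -0.90 in EOM and -0.78 in TA grafts lay above the median of all genes. *Msx1* stood at 4.38 ± 0.50, 4.14 ± 1.00, 4.93 ± 1.09 and 5.18 ± 1.25. *Cux2* stood at 3.28 ± 0.84, 1.65 ± 1.58, 1.50 ± 2.25 and 1.05 ± 2.15. *Nkx6-2* stood at 1.37 ± 1.21, 0.71 ± 1.06, 0.81 ± 1.16 and 2.21 ± 1.95, and *Prrx2* at 1.15 ± 1.56, 0.08 ± 1.55, 1.18 ± 2.18 and 0.98 ± 1.96.

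The remaining 8 had a median of 0 reads in at least 1 pre-graft group. *Hhex* stood at -0.84 ± 1.03, 1.12 ± 2.50, 0.35 ± 2.15 and 2.54 ± 0.91, with 5 to 16 reads in all 7 TA grafts. *En1* stood at -0.41 ± 1.37 in EOM and -0.45 ± 1.15 in TA grafts. *Irx2* stood at 0.47 ± 1.57, -0.89 ± 0.62, -0.25 ± 1.39 and -0.92 ± 0.27. *Isl1* stood at 0.17 ± 1.74, -0.87 ± 0.63, -0.83 ± 0.36 and -0.37 ± 1.04. Group means of *Lhx4* ran from -0.59 to 0.44, of *Lhx9* from -0.89 to 0.17, of *Shox2* from -0.89 to 0.81, and of *Nkx6-3* from -1.25 to -0.23. *Shox2* had reads in 5 of 7 EOM grafts, 31 at most.

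Another 25 genes had reads and were tested nowhere. The 5 with most reads are *Tlx2* (54, of which 53 in 1 TA graft), *Gbx1* (42), *Gbx2* (30), *Msx3* (22) and *En2* (21), each seen in 6 libraries at most. All 8 genes with reads in 1 library only are among the 25. The 21 genes without a read include *Msx2*, *Nkx2-5*, *Isl2*, *Lhx3*, *Emx1* and *Irx4*, and at these depths 0 reads allow up to 3 reads per library, 1.44 RPM on average in EOM and 1.98 in TA before grafting and 1.92 in EOM grafts, for counting error only.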

How the data were processed

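RNA libraries of EOM and TA MuSCs before and after grafting were compared, and 40 bisulfite libraries of the series were not analysed here. The authors deposited log2 RPM per gene (Seqmonk), in which a gene without a read stands at 0.9 of a read. The submitters' processing notes list Trim Galore 0.4.2 and 0.4.4, HISAT2 2.1.0 and Bismark 0.16.3 for RNA and bisulfite data together. From these deposited log2 values whole read counts were recovered (99.9971% whole within 0.05). Of 25965 rows, 66 repeated symbols were dropped. Per the labels, the group, mouse and experiment of each library were taken. The 30 libraries passing quality control were tested with limma 3.58.1 (R 4.3.3; trend; Benjamini-Hochberg adjustment over all genes tested), keeping genes above log2 RPM 1 in at least 4 libraries compared. Genes were called at an adjusted p below 0.05 when they changed by more than 1 on the log2 scale. Called genes are given in every group, tested genes never called by group means, and the 5 untested genes with most reads by name. Some other untested genes are named outside this rule. The values of 1 tested gene, which was never called, are not reported here. The members and lists were chosen with earlier results of these data known.

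Alternatives were log2(RPM + 1), no filter, libraries centred on their median, edgeR 4.0.16 (quasi-likelihood, TMM) and DESeq2 1.42.0 on recovered reads, the donor mouse as a block, each experiment alone, all 40 libraries, and each library left out. The fits were tested on simulated data. Libraries with the same number in an experiment come from the same donor mouse, which pairs them. Correlations of their deviations ran from -0.0655 to 0.178 before grafting (7 pairs), -0.0688 to 0.104 for TA (7 pairs), -0.222 to 0.096 for EOM (6 pairs) and -0.117 to 0.0887 between grafts (6 pairs). Libraries of 1 group come from separate donor mice, and intervals and floors cover counting error only. Promoter windows are from RefSeq (GRCm38.p6), and gene coordinates are GRCm38.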

Additional observations from a re-analysis of the deposited data

Results flagged for a closer look

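In 6 of 65 combinations of a called gene and a group (18 genes), 1 library lay far from the others of its group by Dixon's criterion, which chance alone meets in about 1 in 20 groups. *Prrx1* was 7.18 log2 RPM in the EOM pre-graft library of mouse 4 of Experiment 2, against 6.20 to 6.47 in the others. *Tgif2* was 1.92 in the TA pre-graft library of mouse 2 of Experiment 2, against 3.36 to 4.56, and -1.06 (1 read) in the TA graft of mouse 3 of Experiment 1, against 2.66 to 5.20. *Tshz3* had no read (-0.95) in the EOM graft of mouse 4 of Experiment 2, against 4.61 to 7.73. *Prox2* was 0.77 (2 reads) in the EOM graft of mouse 5 of Experiment 2, against -1.14 to -0.34. *Satb1* had no read (-1.14) in the TA pre-graft library of mouse 3 of Experiment 2, against 2.72 to 3.97.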

How the results depend on the processing

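Of 3 genes called before grafting, 1 was called in edgeR, 0 in Experiment 1 alone and 1 with all libraries. In Experiment 1 alone the filter left *Irx5* untested, and *Tshz2* (0.99, limma adjusted p = 0.0333) missed only the limit of 1 on the log2 scale. In TA grafts, with 12 called, 7 were called after centring (4 of the 12 among them), 4 in edgeR (2 of the 12), 7 in DESeq2 (4 of the 12) and 6 in Experiment 2 alone (6 of the 12). In EOM grafts, with 16 called, 3 were called after centring (2 of the 16), 2 in edgeR (1 of the 16) and 3 in DESeq2 (2 of the 16). Over all genes, edgeR called 782 higher and 402 lower of 13076 in TA grafts, and 907 and 380 of 13094 in EOM grafts. DESeq2 called 1151 and 545 in TA and 1196 and 546 in EOM grafts. Before grafting edgeR called 191 and 247 of 13217. Where no count over all genes is given, the counts cannot be read as particular to homeobox genes. Between the graft changes, 1 gene was called on log2(RPM + 1). Leaving out 1 library gave 3 to 4, 9 to 14, 14 to 17, 0 to 0 and 0 to 1 calls in the 5 comparisons. With the donor mouse as a block, counts were 4, 12, 16, 0 and 0, and *En1* before grafting (-2.16) was the 1 call that changed. In EOM grafts *Tgif2* turned to 0.13 in edgeR and 0.26 in DESeq2, *Tshz2* to 0.10 and 0.25, *Cux1* to 0.033 in DESeq2 and *Msx1* to -0.072 with all libraries. The fit of all libraries includes the EOM pre-graft library of mouse 1 of Experiment 1, which held 302 reads on genes. A gene without a read stands at 10.7 log2 RPM in it, and at 4.40 in the TA pre-graft library of mouse 5 of Experiment 1. The cause of these sign changes was not tested.

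Besides *Lhx6*, calls lost when 1 library was left out were *Prrx1* in TA grafts (7 of 15 libraries, -1.50 to -0.97), *Satb1* in EOM grafts (5 of 15, -2.39 to -1.61), *Zeb2* in TA grafts (mouse 3 of Experiment 2, -0.93) and *Tgif2* in EOM grafts (mouse 5 of Experiment 2, -1.32). Genes under a few reads per library could not be tested at these depths.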
